A study of Mus musculus with 15 samples.

Results

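E7 clone 2 of the mouse B-cell lymphoma line A20 was compared with the unedited A20 parental line by RNA sequencing. The comparison took every library titled for either line, which gave 3 libraries of E7 clone 2 and 3 of A20 parental, 6 of the 15 libraries of the series. All 13904 genes that passed a filter on low counts were tested. A20 is an established line from a BALB/c mouse lymphoma, and the parental cells were labelled wild type. E7 clone 2 was labelled as edited by CRISPR in exon 7 of *Foxp1*. Per the study's methods, a plasmid carrying Cas9 and the guide was electroporated into A20 cells, transfected cells were sorted, and clones were raised by single cell dilution. The line is therefore 1 clone, and the edit cannot be told apart here from other differences that the founding cell carried. The parental cells did not pass through that single cell step. The 3 replicates of each line were labelled as biological replicates from separate passages, with no further treatment.

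Foxp1 is a forkhead transcription factor that is needed for early B-cell development and is kept at high levels in some aggressive human B-cell lymphomas. It binds DNA through its forkhead domain and acts mainly as a repressor, and shorter forms of the protein arise from internal start sites. A base inserted or lost in a coding exon shifts the reading frame, which stops the full protein but need not remove the transcript, so the RNA level of an edited gene reports on the transcript alone.

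The exon that carries number 7 in a full-length annotated transcript is shown because the clone is labelled by that number. In GRCm38 it lies on the reverse strand at chr6:99015424-99015510, and it is exon 7 of the 19 exons of the coding transcript Foxp1-204 of GENCODE. It has 87 bases in 29 codons and keeps the reading frame, and 11 of these codons are cag or caa. Of the 31 annotated *Foxp1* transcripts, 19 include it. The guide is not printed here, and no guide sequence was matched to this exon. The exon is given 5′ to 3′ on the coding strand.
Foxp1 exon 7: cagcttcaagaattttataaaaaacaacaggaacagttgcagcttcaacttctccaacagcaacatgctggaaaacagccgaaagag

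*Foxp1* itself (ENSMUSG00000030067, chromosome 6, 98925338 to 99522721) was lower in E7 clone 2. Its level in the parental libraries was 102, 166 and 147 CPM (counts scaled to library size with TMM factors), from 3381, 6212 and 5046 counts. The E7 clone 2 libraries held 37.1, 39.6 and 52.3 CPM, from 1404, 1485 and 1632 counts. The highest E7 clone 2 library lay below the lowest parental library, and the spread among the parental libraries was the wider. The log2 fold change was -1.69 ± 0.20 (SE), a 3.22-fold difference (adjusted p = 0.00116 by the quasi-likelihood method of edgeR, with p adjusted by Benjamini-Hochberg over all genes, as throughout). The exact two-sided permutation test gave p = 0.1, the smallest that 3 against 3 libraries allow. The gene counts sum *Foxp1* transcripts with and without exon 7. *Gm20696* and *Gm20705* are annotated across part of the same stretch, and read pairs over exons of several genes were not counted. The *Foxp1* count may therefore be partial. Fewer transcripts per cell cannot be told apart from fewer cells expressing the gene.

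Before the other genes are described, 2 libraries need naming. Replicate 3 of E7 clone 2 stood apart from its partners. Mitochondrially encoded genes took 10.4% of its counts, against 5.82% and 2.98% in replicates 1 and 2 and 2.82% to 3.99% in the parental libraries, and the translation factor *Eef1a1* took 3.64%, against 1.45% to 1.72% in the other 5. Its TMM factor was 0.826, against 0.997 to 1.05 in those 5. Replicate 1 of A20 parental differed from the other 2 parental libraries in metabolic genes, as described with the gene lists. Total counts of the 6 libraries ranged from 32308691 to 37754704, and 3 counts, taken as the least that can be read, corresponded to 0.0792 to 0.0962 CPM in a library. These floors cover counting error only. Values without one or the other are given beside the results that they moved most.

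Of the 13904 genes, 29 (0.209%) were lower and 12 (0.0863%) were higher in E7 clone 2 at an adjusted p under 0.05. At an unadjusted p under 0.05, 1021 genes (7.34%) were lower and 832 (5.98%) higher, and over all genes the log2 fold change had a median of 0.00. In each of the 41 genes called, the 3 libraries of one line lay apart from the 3 of the other. This was common among all genes, since 13.3% had every E7 clone 2 library below and 10.8% every one above the parental libraries. Most calls were of large changes, with 36 of 41 changed by at least 1 on the log2 scale. The genes lower in the clone were mostly rare transcripts there, and 20 of the 29 averaged under 1 CPM in E7 clone 2. The share of all tested genes under that level was not counted, and a gene could pass the filter through another line alone. The test finds large changes more readily. In simulated data 89 of 112 genes changed 4-fold were recovered, against 28 of 88 changed 2-fold. Neither the sizes of the called changes nor the rarity of the lower genes was therefore read as a trait of the clone.

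**Figure D1:**
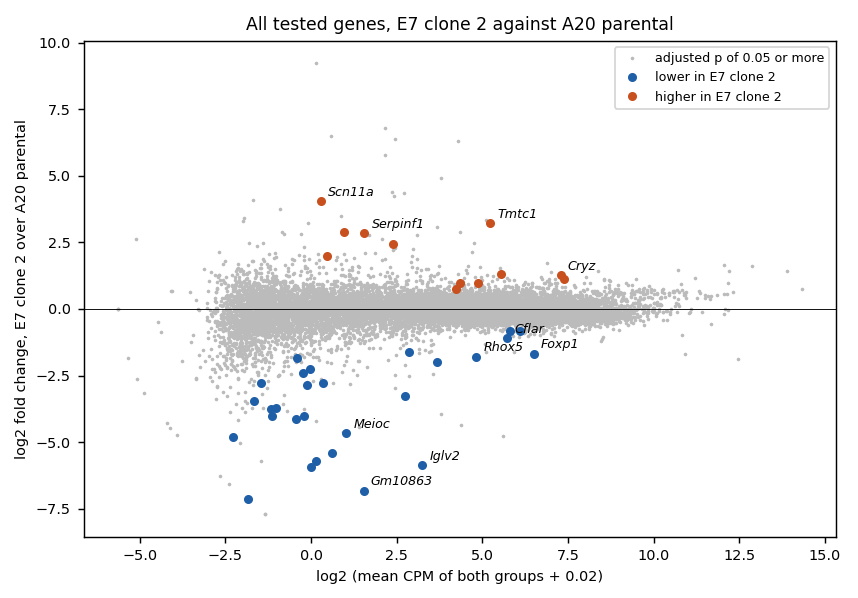
Each dot is a tested gene, placed by its mean level in both lines on the horizontal axis (log2 of CPM + 0.02) and by its log2 fold change, E7 clone 2 over A20 parental, on the vertical axis. Blue genes were lower and orange genes higher at an adjusted p under 0.05; the named lower ones reach -7.14 and the higher ones 4.06, and the grey genes did not pass the test.

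The largest changes were of transcripts present in the parental line and at or near 0 in the clone. *Slc15a1* (chromosome 14, 121459621 to 121505254), which encodes a proton-coupled transporter of small peptides known from the gut, had 25, 14 and 14 counts in the parental libraries and 0 in every E7 clone 2 library. Set against 3 counts over the group, it was at least 17.9-fold lower (adjusted p = 0.031, edgeR). *Aldh1a2* (chromosome 9, 71215789 to 71296243), which makes retinoic acid from retinaldehyde, held 1.87, 2.00 and 1.95 CPM in the parental libraries against 1, 2 and 0 counts in E7 clone 2. The parental libraries were nearly equal, and the parental to clone ratio was 69.1 with a 95% exact counting interval of 23.3 to 338 (adjusted p = 0.0225, edgeR). *Proser2* (chromosome 2, 6100025 to 6130211) fell from 17, 13 and 8 counts to 1, 0 and 0 counts, a ratio of 38.6 with a counting interval of 6.52 to 1565 (adjusted p = 0.0356, edgeR). All 3 calls rested on few reads. With 1 library of either line left out, the adjusted p of *Slc15a1* ran from 0.0734 to 0.129 and that of *Proser2* from 0.0839 to 0.188, so both calls were lost in each case, and *Aldh1a2* was called only without parental replicate 1 (edgeR).

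*Gm10863* (chromosome 15, 79166041 to 79227524), annotated as a processed transcript with no protein, gave the smallest adjusted p. It held 5.26, 5.50 and 6.38 CPM in the parental libraries and 0.0528, 0.0533 and 0.0321 CPM in E7 clone 2, or 2, 2 and 1 counts. The log2 fold change was -6.83 ± 0.42 (adjusted p = 1.98e-06, edgeR). The neighbouring tested genes, *Polr2f* and *Pick1*, had log2 fold changes of 0.42 and -0.01 and were not called.

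*Iglv2* (chromosome 16, 19260401 to 19260844), a variable segment of the immunoglobulin lambda light chain, had the most abundant transcript among the genes that nearly vanished. Its parental libraries held 20.2, 16.2 and 19.3 CPM and its E7 clone 2 libraries 0.317, 0.160 and 0.481 CPM (log2 fold change -5.86 ± 0.61, adjusted p = 0.000417, edgeR). Other lambda segments, chosen after their values were seen, were not called. The log2 fold change of the variable segment *Iglv1* was 1.06 (adjusted p = 0.185, edgeR) and that of the constant segment *Iglc2* was 0.01 (adjusted p = 0.994, edgeR). Read pairs that align to several places were not counted, so the level of a gene segment with near copies is uncertain.

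*Meioc* (chromosome 11, 102663716 to 102682237), which encodes a protein needed for germ cells to pass through meiotic prophase, held 3.30, 4.0 and 4.34 CPM in the parental libraries and 0.106, 0.240 and 0.0962 CPM in E7 clone 2 (log2 fold change -4.67 ± 0.46, adjusted p = 0.000355, edgeR). *Phyhip* (chromosome 14, 70457476 to 70468832), which interacts with phytanoyl-CoA hydroxylase, fell from 3.45, 2.99 and 2.47 CPM to 0.0264, 0.0533 and 0.128 CPM (log2 fold change -5.40 ± 0.64, adjusted p = 0.0011, edgeR). *Gm15128*, a protein-coding gene on the X chromosome (147765991 to 147833456), fell from 2.66, 1.66 and 2.10 CPM to 3, 1 and 0 counts (log2 fold change -5.71 ± 0.56, adjusted p = 0.000642, edgeR). In all 3 the lines were far apart and no library stood between them. The pseudogene *Gm6445* (chromosome 19, 9607104 to 9608376) fell from 1.12, 1.39 and 1.57 CPM to 4, 2 and 2 counts (log2 fold change -4.12 ± 0.75, adjusted p = 0.031, edgeR).

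**Figure D2:**
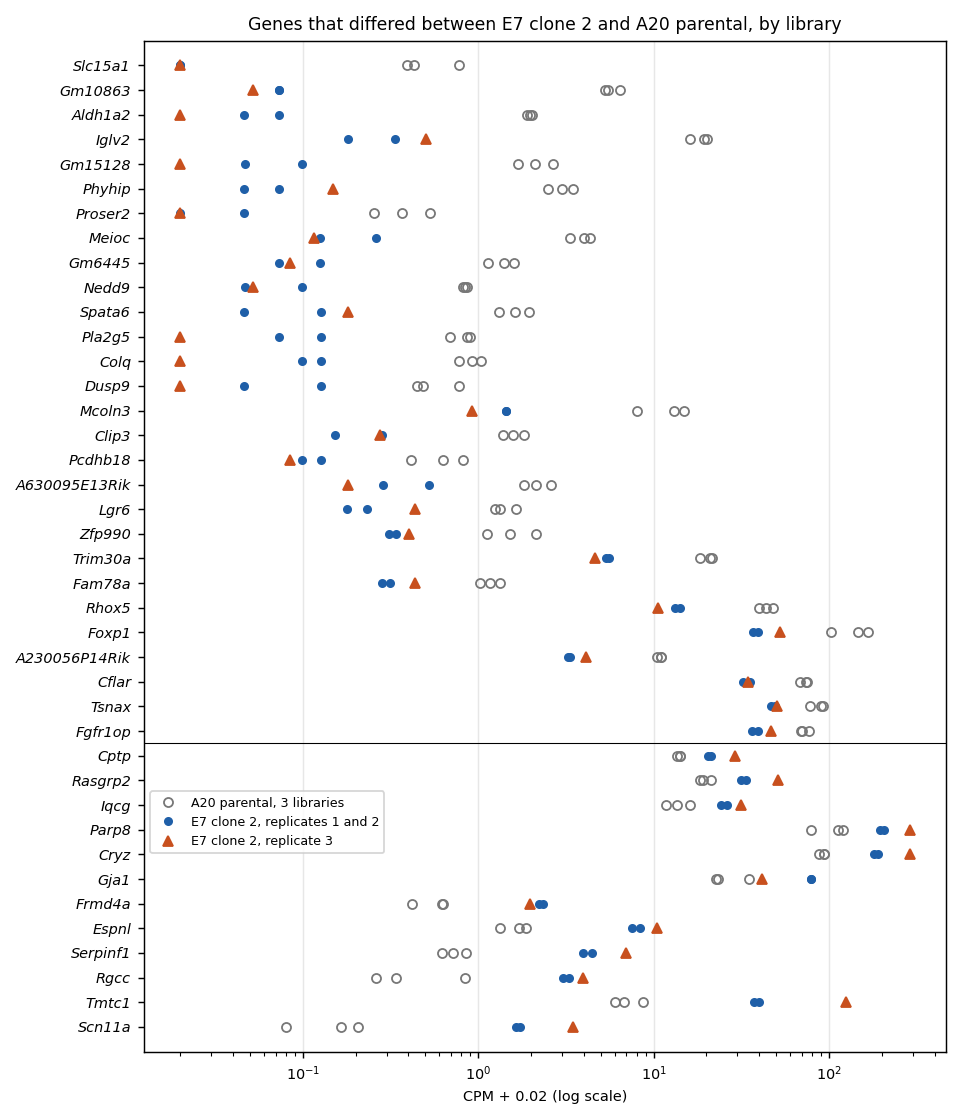
Each row is one of 40 genes called in E7 clone 2 against A20 parental and each symbol one library, placed by its CPM + 0.02 on a log axis, with genes lower in the clone above the line and higher genes below it. In *Tmtc1* the orange triangle of replicate 3 reaches 125 CPM, against 37.2 and 39.6 CPM in replicates 1 and 2, while in *Gja1* it lies below them at 41.5 CPM.

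Besides *Foxp1* and *Iglv2*, 7 of the named genes that were lower averaged at least 10 CPM in the parental line, so that their falls rested on more counts. *Rhox5* (X chromosome, 37804842 to 37808876), an X-linked homeobox gene expressed in reproductive tissue, held 44.0, 39.9 and 47.8 CPM in the parental libraries and 13.2, 14.1 and 10.6 CPM in E7 clone 2 (log2 fold change -1.80 ± 0.20, adjusted p = 0.000771, edgeR). *Trim30a* (chromosome 7, 104409025 to 104465193), a tripartite motif protein that restrains NF-kappaB signalling, held 18.4, 21.0 and 21.6 CPM against 5.55, 5.33 and 4.62 CPM (log2 fold change -1.97 ± 0.28, adjusted p = 0.00596, edgeR). *Mcoln3* (chromosome 3, 146117459 to 146141806), a cation channel of endosomes and lysosomes, held 8.04, 13.1 and 14.8 CPM against 1.43, 1.41 and 0.898 CPM (log2 fold change -3.26 ± 0.43, adjusted p = 0.00244, edgeR). Adjacent family members of *Trim30a* and *Mcoln3* were not called. That of *Trim30a*, *Trim12c*, had a log2 fold change of -0.62 (adjusted p = 0.114, edgeR), and that of *Mcoln3*, *Mcoln2*, one of -0.06 (adjusted p = 0.927, edgeR).

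*Cflar* (chromosome 1, 58711508 to 58758884), which encodes the caspase-8 inhibitor c-FLIP, held 73.5, 68.6 and 74.5 CPM in the parental libraries and 32.2, 35.3 and 34.3 CPM in E7 clone 2. Within both lines the libraries were close, and the level in the clone was 2.13-fold lower (log2 fold change -1.09 ± 0.18, adjusted p = 0.0225, edgeR). The call of *Cflar* was lost in each fit without 1 library of either line, with adjusted p of 0.0734 to 0.119. *Casp8*, the adjacent gene whose product c-FLIP inhibits, had a log2 fold change of 0.06 (adjusted p = 0.902, edgeR). *Tsnax* (chromosome 8, 125012997 to 125034192), the partner of the RNA-binding protein translin, held 77.6, 90.4 and 92.6 CPM against 46.9, 49.5 and 50.5 CPM (log2 fold change -0.83 ± 0.13, adjusted p = 0.0159, edgeR). *Fgfr1op* (chromosome 17, 8165501 to 8196804), which encodes a centrosomal protein, held 76.9, 69.4 and 69.8 CPM against 39.4, 36.6 and 46.4 CPM (log2 fold change -0.82 ± 0.14, adjusted p = 0.0257, edgeR). *Tsnax* and *Fgfr1op* were the only genes of the 29 whose change was under 1 on the log2 scale.

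*A230056P14Rik* (chromosome 7, 55962531 to 55980868), a processed transcript, fell from 10.8 ± 0.376 CPM (SD, n = 3) to 3.53 ± 0.469 CPM (log2 fold change -1.61 ± 0.20, adjusted p = 0.00163, edgeR). *Nipa1*, which lies on the opposite strand across the same stretch and encodes a magnesium transporter, went from 5.98 to 2.71 CPM and did not pass the test (log2 fold change -1.14, adjusted p = 0.114, edgeR). Read pairs were counted without strand and pairs over both genes were left out, so that reads of the pair cannot be fully told apart.

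The other 11 named genes that were lower had parental means of 0.550 to 2.17 CPM. They included *Nedd9*, a scaffold protein of focal adhesions, at 0.821 ± 0.022 CPM (SD, n = 3) in the parental line and 0.046 ± 0.0289 CPM in E7 clone 2 (log2 fold change -4.03 ± 0.72, adjusted p = 0.0293, edgeR). *Spata6*, which builds the connecting piece of sperm, went from 1.61 ± 0.311 to 0.0978 ± 0.0674 CPM (log2 fold change -4.03 ± 0.49, adjusted p = 0.00128, edgeR). *Lgr6*, a receptor for R-spondins in Wnt signalling, held 1.63, 1.23 and 1.31 CPM against 0.158, 0.213 and 0.417 CPM (log2 fold change -2.40 ± 0.42, adjusted p = 0.0286, edgeR). *Dusp9*, a phosphatase of MAP kinases, *Pla2g5*, a secreted phospholipase A2, and *Colq*, the collagen tail of acetylcholinesterase, were each at 0 to 4 counts in the E7 clone 2 libraries, with adjusted p of 0.0333, 0.0356 and 0.0333 (edgeR). *Clip3*, a microtubule-binding protein, *Pcdhb18*, a protocadherin, *Zfp990*, a zinc finger gene, *Fam78a* and *A630095E13Rik* fell by 2.84, 2.79, 2.24, 1.82 and 2.78 on the log2 scale. Genes such as *Pcdhb18* and *Zfp990* belong to families of near copies, and their counts are uncertain.

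The 12 genes that were higher in E7 clone 2 were on 12 chromosomes. The largest fold was of *Scn11a* (chromosome 9, 119753763 to 119825456), a voltage-gated sodium channel of sensory neurons, with 0.0605, 0.187 and 0.146 CPM in the parental libraries and 1.72, 1.63 and 3.46 CPM in E7 clone 2 (log2 fold change 4.06 ± 0.72, adjusted p = 0.029, edgeR). The *Scn11a* call rested on 2, 7 and 5 parental counts and was lost in each fit without 1 library of either line, with adjusted p of 0.0627 to 0.157. *Tmtc1* (chromosome 6, 148232430 to 148444389), a mannosyltransferase of the endoplasmic reticulum, held 5.99, 6.78 and 8.73 CPM against 37.2, 39.6 and 125 CPM (log2 fold change 3.23 ± 0.39, adjusted p = 0.00126, edgeR). Replicate 3 lay far above its partners in *Tmtc1*, and without it the log2 fold change was 2.44 (adjusted p = 9.62e-05, edgeR). *Rgcc* (chromosome 14, 79288756 to 79301645), a regulator of the cell cycle induced by complement, held 0.816, 0.240 and 0.320 CPM against 3.27, 3.04 and 3.91 CPM (log2 fold change 2.89 ± 0.50, adjusted p = 0.026, edgeR).

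*Serpinf1* (chromosome 11, 75409769 to 75422701), which encodes the secreted anti-angiogenic factor PEDF, held 0.605, 0.828 and 0.699 CPM in the parental libraries and 4.46, 3.95 and 6.93 CPM in E7 clone 2 (log2 fold change 2.84 ± 0.30, adjusted p = 0.000417, edgeR). *Espnl*, an espin-like actin bundler, held 1.69, 1.31 and 1.86 CPM against 7.47, 8.37 and 10.4 CPM (log2 fold change 2.43 ± 0.38, adjusted p = 0.0131, edgeR). *Frmd4a*, a scaffold of cell polarity, held 0.605, 0.400 and 0.611 CPM against 2.19, 2.32 and 1.96 CPM (log2 fold change 2.00 ± 0.36, adjusted p = 0.031, edgeR). In these 3 genes every E7 clone 2 library was over 2 times the highest parental one.

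Among the 12 genes called higher, the 6 that averaged at least 10 CPM in the parental line had the smaller changes. Since the test finds large changes more readily, this order was not read as a trait of the clone. *Cryz* (chromosome 3, 154596711 to 154623182), a quinone reductase, held 93.4, 87.4 and 94.0 CPM against 181, 191 and 289 CPM (log2 fold change 1.27 ± 0.20, adjusted p = 0.0131, edgeR). *Parp8*, a mono-ADP-ribosyltransferase, held 78.8, 120 and 112 CPM against 205, 195 and 288 CPM (log2 fold change 1.15 ± 0.20, adjusted p = 0.0286, edgeR). *Gja1*, which encodes the gap junction protein connexin 43, held 35, 23.2 and 22.7 CPM against 78.5, 79.3 and 41.5 CPM (log2 fold change 1.30 ± 0.23, adjusted p = 0.0293, edgeR). Replicate 3 was the highest of the clone for *Cryz* and *Parp8* and the lowest for *Gja1*. *Rasgrp2*, which activates the GTPase Rap1, held 21.3, 19.1 and 18.5 CPM against 31.6, 33.5 and 51.1 CPM (log2 fold change 0.98 ± 0.18, adjusted p = 0.031, edgeR). *Iqcg*, an IQ motif protein of cilia, and *Cptp*, a transfer protein for ceramide-1-phosphate, rose by 0.98 and 0.75 on the log2 scale (adjusted p = 0.0293 and 0.0448, edgeR).

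Replicate 3 was the highest E7 clone 2 library in 10 of the 12 genes that were higher and in 11 of the 29 that were lower. When it was left out, 16 of the 29 and 5 of the 12 genes were still called, and 4 further genes passed in each direction. The 5 were *Tmtc1*, *Serpinf1*, *Gja1*, *Espnl* and *Cryz*. A further fit left out both replicate 3 of E7 clone 2 and replicate 3 of E6 clone 2, which enters the shared estimate of the spread. The E6 clone 2 library was like the other in *Eef1a1*, at 3.03% of counts, and in a low TMM factor of 0.906. Its mitochondrial share was not raised, at 2.35%. The deviations of both libraries from the means of their lines correlated at r = 0.451. In that fit, chosen after the data were seen, all 41 were called among 121 lower and 129 higher genes. Of the 41 genes, 14 were called in each of the 6 fits that left out 1 library of either line, among them *Gm10863*, *Iglv2*, *Meioc*, *Phyhip*, *Gm15128*, *Spata6*, *Mcoln3*, *Trim30a*, *Rhox5*, *Foxp1*, *A230056P14Rik*, *Serpinf1* and *Tmtc1*. Another 12 were called in none of these 6 fits, 8 lower and 4 higher, namely *Slc15a1*, *Proser2*, *Gm6445*, *Nedd9*, *Pla2g5*, *Colq*, *Clip3*, *Cflar*, *Scn11a*, *Frmd4a*, *Iqcg* and *Cptp*. Fitted changes of rare transcripts also moved in size. Without E7 clone 2 replicate 1 the log2 fold change was -6.88 for *Gm15128*, -6.65 for *Proser2* and -4.65 for *Nedd9*. Without replicate 2 it was -6.76 for *Aldh1a2*, -4.94 for *Dusp9* and -4.64 for *Pla2g5*, and without replicate 3 it was -6.09 for *Phyhip*. Without parental replicate 1 that of *Rgcc* was 3.61.

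The called genes were spread over the genome. They lay on 18 chromosomes, and of the 82 genes next to them among tested genes, 6 changed the same way at an unadjusted p under 0.05, 4 of 58 beside lower genes and 2 of 24 beside higher ones. These shares are near the 7.34% and 5.98% of all genes. The median log2 fold change of a chromosome ranged from -0.12 (chromosome 13, 514 genes) to 0.11 (chromosome 7, 1019 genes). In 266 windows of 50 neighbouring tested genes the median ranged from -0.34 to 0.31. The lowest window lay on chromosome 2 from 60037141 to 72257474, where 41 of 50 genes had a value below 0. No test was run on these medians.

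The other clones were compared with E7 clone 2 directly, to ask which of its values set it apart. The same E7 clone 2 libraries enter all of these comparisons, so a gene that is low in them is low in each, and these counts are a description. Against E7 clone 1, which was made with the same guide, 82 of 13904 genes differed (0.59%), 31 lower and 51 higher in E7 clone 2. Against E6 clone 1 and E6 clone 2, which were edited in exon 6, 49 (0.352%) and 312 (2.24%) differed. Of the 41 genes called against the parental line, 16 also differed from E7 clone 1, 11 from E6 clone 1 and 17 from E6 clone 2.

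Of the 41 genes, 4 differed from the parental line and from all 3 other clones. The share of all tested genes that differed from all 3 other clones was not counted, so the 4 are given as a description. *Gm10863* averaged 0.0461 ± 0.0121 CPM (SD, n = 3) in E7 clone 2, against 4.28 ± 1.5 in E7 clone 1, 0.688 ± 0.124 in E6 clone 1 and 6.30 ± 1.71 in E6 clone 2. *Tsnax* averaged 49.0 ± 1.87 CPM, against 90.3 ± 7.56, 91.3 ± 2.23 and 72.8 ± 13.3 in the same order. *Serpinf1* averaged 5.11 ± 1.59 CPM in E7 clone 2 and 1.54 to 1.82 CPM in the other clones, so that its lowest E7 clone 2 library, at 3.95 CPM, lay above their highest, at 2.06 CPM. *Rgcc* averaged 3.41 ± 0.452 CPM in E7 clone 2 and 0.328 to 0.60 CPM in the other clones. The largest of the adjusted p over these 3 comparisons were 0.000811 for *Gm10863*, 0.038 for *Tsnax*, 0.0249 for *Serpinf1* and 0.0449 for *Rgcc* (edgeR). Against the parental line, *Gm10863* and *Serpinf1* were called in all 6 fits without 1 library of either line. *Tsnax* was called in 2 of these fits and *Rgcc* in 1, with adjusted p of up to 0.101 and 0.160 (edgeR).

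**Figure D3:**
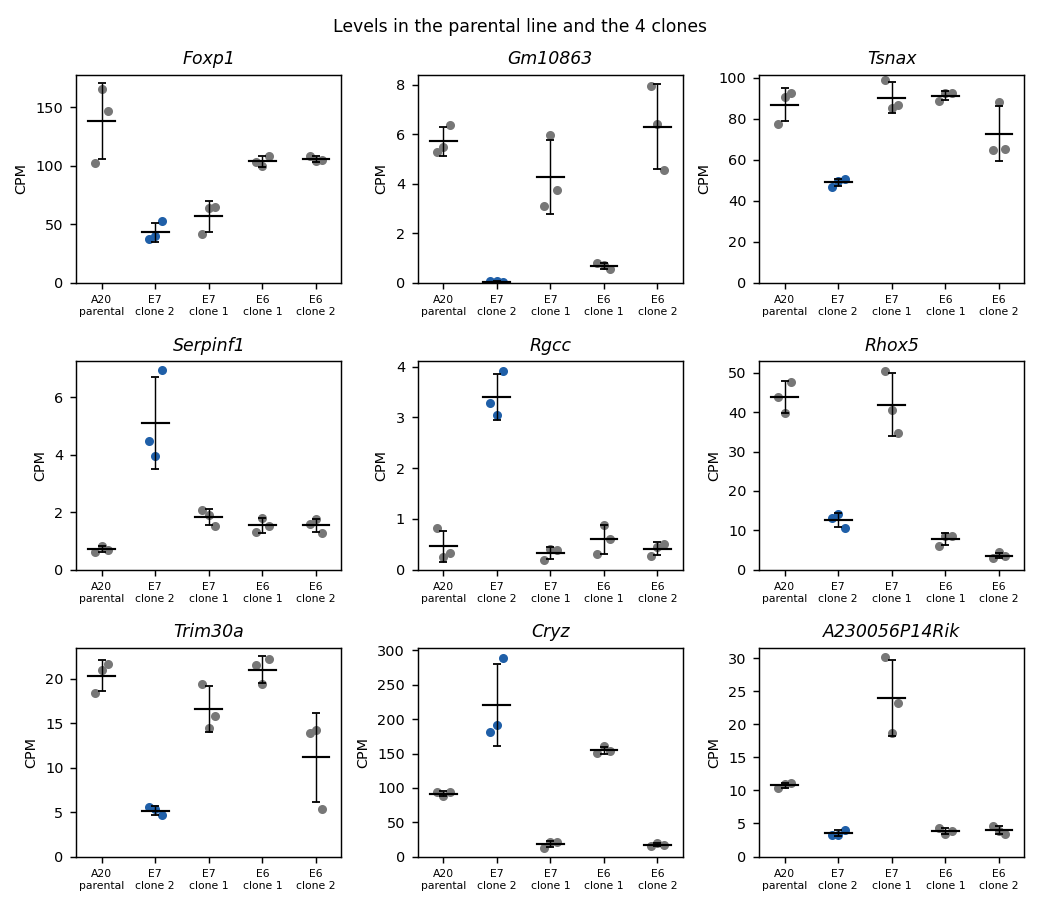
Points are the CPM of single libraries of A20 parental and the 4 clones, bars their mean and whiskers the SD (n = 3), for 9 genes. E7 clone 2 (blue) stands apart from every other line in *Gm10863*, *Tsnax*, *Serpinf1* and *Rgcc*, and in *Rhox5* and *A230056P14Rik* it and both E6 clones lie below the parental line and E7 clone 1, with *Rhox5* lower still in E6 clone 2 at 3.60 CPM.

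Among the genes that differed between the exon 7 clones, the exon 6 clones took either side. *Rhox5* averaged 42.0 ± 8.01 CPM in E7 clone 1, near the parental 43.9 ± 3.95 CPM, against 12.6 ± 1.82 CPM in E7 clone 2, 7.79 ± 1.53 in E6 clone 1 and 3.60 ± 0.757 in E6 clone 2. Against E6 clone 2, E7 clone 2 was higher in *Rhox5* by 1.80 on the log2 scale (adjusted p = 0.000212, edgeR). *A230056P14Rik* averaged 24.0 ± 5.75 CPM in E7 clone 1 and 3.53 to 3.97 CPM in the other clones. *Cryz* averaged 18.5 ± 4.63 CPM in E7 clone 1 and 17.0 ± 1.94 CPM in E6 clone 2, below the parental 91.6 ± 3.61 CPM, whereas E7 clone 2 at 221 ± 59.8 CPM and E6 clone 1 at 155 ± 5.33 CPM lay above it. *Trim30a* averaged 5.17 ± 0.486 CPM in E7 clone 2, against 16.5 ± 2.56 in E7 clone 1, 21.0 ± 1.49 in E6 clone 1 and 11.2 ± 5.01 in E6 clone 2. The difference between the exon 7 clones passed the test for all 4 genes.

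For *Foxp1* the order of the lines by mean, from the lowest, was E7 clone 2, E7 clone 1, both E6 clones and the parental line. The libraries of the E6 clones, at 99.5 to 109 CPM, overlapped the parental ones, at 102 to 166 CPM. No test of the E6 clones against the parental line is given here. E7 clone 1 averaged 56.8 ± 13.0 CPM, and its difference from E7 clone 2 was -0.40 on the log2 scale (adjusted p = 0.391, edgeR). E6 clone 1 and E6 clone 2 averaged 104 ± 4.6 and 106 ± 2.38 CPM, and E7 clone 2 lay below them by 1.27 and 1.30 on the log2 scale (adjusted p = 0.00786 and 0.00258, edgeR). In *Iglv2*, *Meioc*, *Phyhip*, *Lgr6*, *Slc15a1*, *Aldh1a2*, *Nedd9*, *Zfp990* and *Cflar*, E7 clone 2 did not differ from any of the other 3 clones at the threshold. Each of these clones also averaged below the parental level in them, against the same 3 parental libraries.

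The identity of the cells was read from marker genes. All 16 B-cell markers listed were expressed, and their summed level was 4086 to 4897 CPM in the parental libraries and 4112 to 4813 CPM in E7 clone 2. *Pou2af1* was a large part of the sum, with means of 2822 CPM in the parental line and 2594 CPM in E7 clone 2. Taken singly, 5 markers had every clone library above the parental ones, beside 10.8% of all genes. In 3 every clone library lay below, beside 13.3% of all genes. Of the 16 markers, 0 were called. The 3 markers with the smallest p were *Cd79a*, part of the B-cell receptor (log2 fold change 0.91, adjusted p = 0.17, edgeR), *Fcer2a*, the low-affinity receptor for IgE (1.59, adjusted p = 0.216), and *Cr2*, a complement receptor (-0.43, adjusted p = 0.247). The 10 markers of T and NK cells summed to 1.38 to 4.27 CPM over the 6 libraries, with the T-cell genes *Cd3e*, *Cd8b1* and *Thy1* at 0 counts in all. The 10 myeloid markers summed to 2.79 to 8.74 CPM, with *Lyz2*, *Cd14*, *S100a8* and *S100a9* at 0, and the 10 stromal and epithelial markers to 1.60 to 2.99 CPM, with *Col1a2*, *Col3a1* and *Krt18* at 0. Other members of these lists were detected. Over the 6 libraries *Cd28* had 14 to 78 counts, *Klrb1c* 20 to 92, *Adgre1* 59 to 250 and *Epcam* 37 to 87. None of the 9 of these 30 markers that passed the filter was called.

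Gene lists describe which functions the changes touched. Of 22 genes of the germ line, 7 passed the filter and 2 were called, beside the 0.209% of all genes that were lower. The 2 called were *Meioc* and *Rhox5*. *Spaca6*, a sperm membrane protein needed to fuse with the egg, held 4.90, 2.70 and 1.72 CPM in the parental libraries and 0.475, 0.507 and 0.802 CPM in E7 clone 2 (log2 fold change -2.38 ± 0.48, adjusted p = 0.0631, edgeR). *Sycp1*, of the synaptonemal complex, and *Ddx4*, the germ cell helicase Vasa, had log2 fold changes of -1.27 and -0.86 with unadjusted p of 0.00795 and 0.0127. *Piwil2*, which guides transposon silencing, held 10.3 and 10.1 CPM in replicates 1 and 2 of E7 clone 2 but 1.96 CPM in replicate 3, against 6.52 to 8.25 CPM in the parental libraries. *Taf7l*, a germ cell factor of transcription, averaged 0.497 CPM in the parental line and 0.261 CPM in E7 clone 2 (log2 fold change -0.95, adjusted p = 0.61). A germline gene that is rare in the clone could pass the filter through another line alone, the parental line included. The list was also chosen with earlier results of these data known. Nothing is therefore read from the 2 called of 7 or from a median over these 7.

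Genes of glycolysis had the highest median, at 0.56 over 23 tested members. None was called, and 13 were higher at an unadjusted p under 0.05, beside 5.98% of all genes. *Aldoc*, a fructose-bisphosphate aldolase, held 17.0, 8.12 and 9.75 CPM in the parental libraries and 34.2, 38.8 and 35.1 CPM in E7 clone 2 (log2 fold change 1.63 ± 0.37, adjusted p = 0.103, edgeR). *Tpi1*, triosephosphate isomerase, held 153, 76.3 and 77.0 CPM against 238, 245 and 190 CPM (1.14 ± 0.30, adjusted p = 0.165), and *Pfkl*, a phosphofructokinase, 45.7, 28.3 and 21.6 CPM against 66.3, 76.0 and 56.9 CPM (1.06 ± 0.30, adjusted p = 0.202). The most abundant members were *Pgk1*, *Aldoa* and *Pkm*, the last with 889 and 1030 CPM in replicates 1 and 2 and 428 CPM in replicate 3 of the clone, against 574, 333 and 283 CPM in the parental libraries. Parental replicate 1 was the highest parental library in all of *Aldoc*, *Tpi1*, *Pfkl* and *Pkm*. The list's median was 0.67 without it (0.04 for all genes) and 0.58 without replicate 3 of E7 clone 2, with 1 member called in each of these fits.

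The level of cholesterol synthesis genes depended on single libraries. Their 24 tested members had a median of 0.36, with 0 called and 1 higher at an unadjusted p under 0.05, namely *Fdps*, farnesyl diphosphate synthase (log2 fold change 0.68, adjusted p = 0.361, edgeR). *Hmgcs1*, which makes HMG-CoA, held 513, 137 and 147 CPM in the parental libraries and 291, 300 and 172 CPM in E7 clone 2. Replicate 1 of the parental line was thus the highest of all 6 in *Hmgcs1*, and replicates 1 and 2 of the clone lay between it and the other parental libraries. Without that parental library the median was 0.89 and 17 of 24 members were higher at an unadjusted p under 0.05, beside 8.31% of all genes in that fit, with 0 called. Without replicate 3 of E7 clone 2 the median was 0.57.

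**Figure D4:**
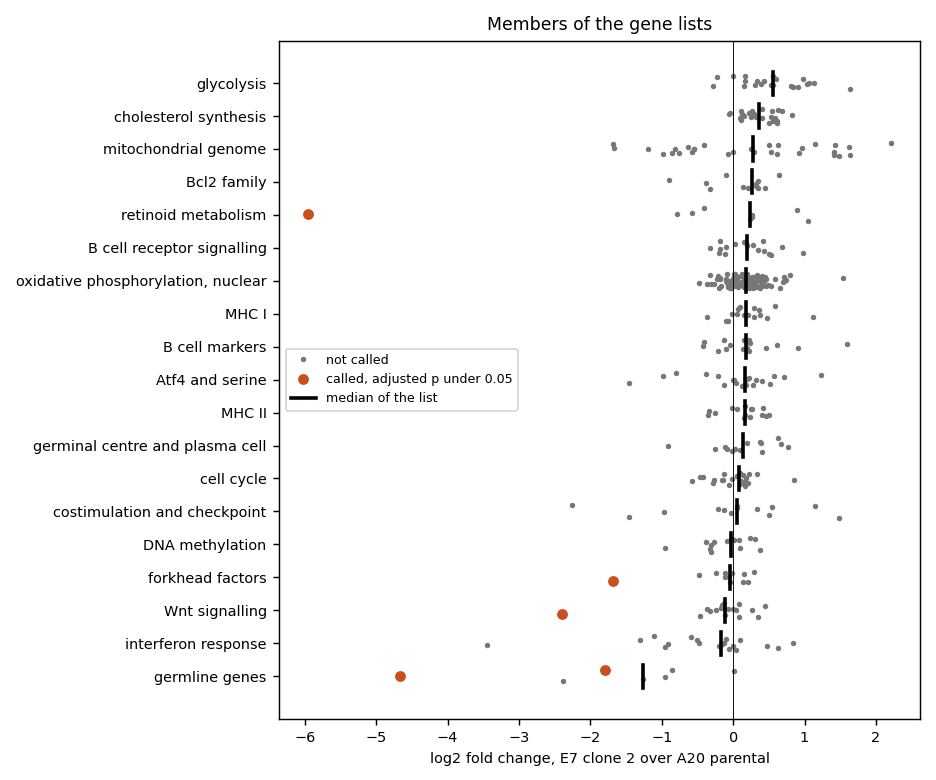
Each dot is the log2 fold change of a tested member, E7 clone 2 over A20 parental, with the median of each list as a black bar and called genes in orange. The median of glycolysis genes lies at 0.56, the bar of the germline genes rests on 7 of 22 members, and the 5 called points are *Aldh1a2*, *Foxp1*, *Lgr6*, *Meioc* and *Rhox5*.

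The respiratory chain and ATP synthase genes of the nucleus had a median of 0.18 over 98 tested members, with 0 called and 9 higher at an unadjusted p under 0.05, beside 5.98% of all genes. Without parental replicate 1 the median was 0.27 and 21 of 98 were higher, beside 8.31% of all genes. *Ndufv3* and *Ndufa3*, subunits of complex I, and *Atp5j2*, a subunit of ATP synthase, had log2 fold changes of 0.79, 0.71 and 0.75 (adjusted p = 0.119, 0.207 and 0.247, edgeR). The 30 tested genes of the mitochondrial genome had a median of 0.27 with 0 called, but this differed between libraries, at 0.46, -0.43 and 0.93 in replicates 1, 2 and 3 of the clone. The parental libraries differed as well, at 0.59, -0.35 and -0.06. Without E7 clone 2 replicate 3 the median was 0.05, and without parental replicate 1 it was 0.89.

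Genes of the cell cycle split the libraries of the clone. The median of 24 tested members was 0.08 and 0 were called, but the 3 libraries of the clone had medians of 0.42, 0.45 and -1.36 against the parental mean. *Mki67*, a marker of proliferating cells, held 1570, 1044 and 920 CPM in the parental libraries and 1268, 1398 and 247 CPM in E7 clone 2. *Top2a*, the topoisomerase of dividing cells, held 1094, 838 and 780 CPM against 1122, 1116 and 247 CPM, and *Mcm6*, of the replicative helicase, 462, 494 and 447 CPM against 606, 617 and 231 CPM. Replicate 3 was the lowest of all 6 libraries in 21 of the 24 members, while replicates 1 and 2 both exceeded every parental library in 13. Without replicate 3 the median was 0.42, and 11 members were higher and 1 lower at an unadjusted p under 0.05, beside 6.13% and 6.16% of all genes in that fit, with 0 called. The exceptions among the 24 included the inhibitor *Cdkn1b*, with 46.6, 79.4 and 67.3 CPM against 40.4, 36.0 and 53.2 CPM (log2 fold change -0.58, adjusted p = 0.334, edgeR), and the cyclin *Ccnd3* (0.85, adjusted p = 0.326).

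**Figure D5:**
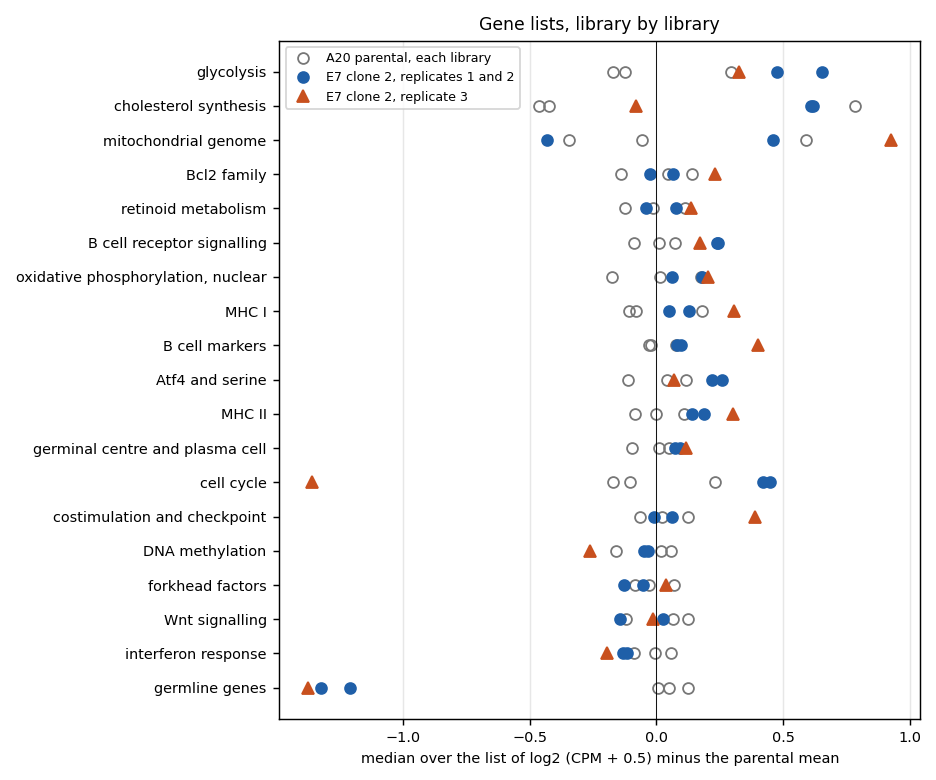
For each list, symbols give the median over its tested members of log2 (CPM + 0.5) minus the mean of the parental libraries, one symbol per library. Replicate 3 of E7 clone 2 (orange triangle) lies at -1.36 for cell cycle genes, where replicates 1 and 2 lie at 0.42 and 0.45, and one parental library lies at 0.78 for cholesterol synthesis, where the other parental libraries lie below 0.

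Genes of antigen presentation, which the study examined on the cell surface, were not called. The summed level of 15 MHC class II genes was 3557 to 4103 CPM in the parental libraries and 4443 to 5649 CPM in E7 clone 2. Each library of the clone thus lay above each parental one in the sum, of which *Cd74* was a large part. Taken singly, 3 of the 15 genes had every clone library above the parental ones, beside 10.8% of all genes. In 0 of the 15 did every clone library lie below. Of the 15 genes, 11 had a log2 fold change above 0, the median was 0.16, and 0 had an unadjusted p under 0.05 in either direction. The median was 0.30 without parental replicate 1 and 0.20 without E7 clone 2 replicate 3. *Cd74*, the invariant chain, held 2185, 1975 and 2250 CPM in the parental libraries and 2527, 2730 and 3205 CPM in E7 clone 2 (log2 fold change 0.40 ± 0.19, adjusted p = 0.383, edgeR). Every library of the clone lay above the parental ones in *Cd74*, as in 10.8% of all genes, but the difference did not pass the test. *H2-Aa*, the alpha chain of I-A, held 808, 627 and 712 CPM against 822, 844 and 1194 CPM (0.41 ± 0.26, adjusted p = 0.486), and *Ciita*, the class II transactivator, 67.3, 81.1 and 82.1 CPM against 69.1, 74.7 and 38.3 CPM (-0.34 ± 0.19, adjusted p = 0.452). The 16 genes of the class I pathway had a median of 0.18 with 0 called, which was 0.29 without parental replicate 1 and 0.09 without E7 clone 2 replicate 3. In this list the chaperone *Calr* held 569, 357 and 421 CPM against 654, 623 and 1640 CPM, with replicate 3 far above the rest (adjusted p = 0.308, edgeR), and *Erap1*, which trims peptides, had a log2 fold change of -0.36 (adjusted p = 0.286).

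B-cell receptor signalling genes had a median of 0.19 over 18 members, with 0 called and 5 higher and 1 lower at an unadjusted p under 0.05, beside 5.98% and 7.34% of all genes. *Vav1*, an exchange factor downstream of the receptor, held 55.0, 53.1 and 48.5 CPM against 66.7, 72.9 and 82.6 CPM (log2 fold change 0.50 ± 0.11, adjusted p = 0.103, edgeR). *Ptpn6*, the phosphatase SHP-1, held 118, 52.4 and 58.2 CPM against 138, 161 and 151 CPM (0.98 ± 0.26, adjusted p = 0.171). It was called without parental replicate 1, at a log2 fold change of 1.46 (adjusted p = 0.00782). *Cd81*, a tetraspanin, had a log2 fold change of 0.69 (adjusted p = 0.165). Costimulatory and checkpoint genes had a median of 0.06 over 13 members with 0 called, among them *Cd200*, an inhibitory ligand (0.50 ± 0.13, adjusted p = 0.165), *Lgals9* (-2.25, adjusted p = 0.225) and *Cd86* (-0.97, adjusted p = 0.255). Germinal centre and plasma cell genes had a median of 0.14 over 14 with 0 called, which was 0.06 without E7 clone 2 replicate 3 and 0.34 without parental replicate 1. Among them, *Bach2*, a repressor of plasma cell fate, had a log2 fold change of -0.91 (adjusted p = 0.313), and *Mzb1* one of 0.67 (adjusted p = 0.394), which held 346, 302 and 350 CPM against 362, 343 and 884 CPM.

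Of the 12 forkhead genes tested, *Foxp1* included, only *Foxp1* was called, and the list's median was -0.05. *Foxn2* held 101, 108 and 92.1 CPM in the parental libraries and 73.4, 74.9 and 67.7 CPM in E7 clone 2 (log2 fold change -0.48 ± 0.14, adjusted p = 0.209, edgeR). *Foxo1*, the most abundant member and a driver of B-cell genes, had a log2 fold change of -0.12 (adjusted p = 0.692). *Lgr6* was the only one called of 17 tested Wnt signalling genes (median -0.11), and *Lrp6*, a Wnt co-receptor, had a log2 fold change of -0.36 (adjusted p = 0.301). *Aldh1a2* was the only one called of 9 tested genes of retinoid metabolism (median 0.23, and 0.03 without E7 clone 2 replicate 3), where *Dhrs3*, a retinaldehyde reductase, and *Bco1*, which cleaves carotene, had values of 0.89 and 1.04 (adjusted p = 0.255 and 0.297).

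In the remaining lists 0 genes were called. The interferon response genes had a median of -0.17 over 19 members. *Ifit1*, an antiviral effector, held 0.907, 0.267 and 0.175 CPM in the parental libraries and 0.0264, 0.0533 and 0.0321 CPM in E7 clone 2, or 1, 2 and 1 counts (log2 fold change -3.45 ± 0.85, adjusted p = 0.129, edgeR). The target genes of Atf4 and of serine synthesis had a median of 0.17 over 21 members, with the stress gene *Ddit4* at 22.3, 28.5 and 21.1 CPM against 44.6, 44.6 and 78.6 CPM (1.22 ± 0.28, adjusted p = 0.103). Genes of DNA methylation had a median of -0.02 over 15 members. *Dnmt1*, the maintenance methyltransferase, held 245, 197 and 158 CPM against 319, 367 and 95.7 CPM, with replicate 3 again the lowest. The Bcl2 family had a median of 0.27 over 12 members, or 0.02 without E7 clone 2 replicate 3, with *Bax*, which opens the mitochondrial outer membrane, at a log2 fold change of 0.44 (adjusted p = 0.245).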

How the data were processed

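RNA was sequenced from A20 parental cells and 4 Foxp1 CRISPR clones, with 3 libraries per line. The authors deposited raw counts of read pairs per gene and library. Per the file headers and the submitters' processing notes, reads were aligned with HISAT and counted with featureCounts 1.5.0 on a GRCm38 annotation, without strand. By that tool's default, pairs aligned to several places or overlapping several genes are not counted. Of 41480 features in each table, 92 spike-ins were left out. Total counts ranged from 26328054 to 39181530 per library.

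Counts were filtered with filterByExpr, normalized with TMM and fitted with the quasi-likelihood test of edgeR 4.0.16 (R 4.3.3) to the 15 libraries together, with 1 coefficient per line and Benjamini-Hochberg adjustment over 13904 genes. The same fit gave the comparisons between clones. Genes with an adjusted p under 0.05 count as called. Levels are TMM-scaled CPM, with the SD over 3 libraries. The SE of a log2 fold change was derived from the test, as its absolute value divided by the square root of the F statistic. Where a group held 0 counts the fold is a bound against 3 counts over the group, and with 1 to 3 counts it is a ratio with a 95% exact interval. The 3 replicates came from separate passages of 1 line, so p values measure the spread between passages. No 2 libraries of A20 parental, and no 2 of E7 clone 2, agreed within sampling noise, and the other lines were not checked for this. In simulated data of 13904 genes for E7 clone 2 against parental, 89 of 112 genes changed 4-fold and 28 of 88 changed 2-fold were recovered, and 2 unchanged genes were called.

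The genes named were *Foxp1*, every called gene, with values by library for the 10 of largest change in each direction, and in each of 22 lists the called members, the 3 most abundant and the 3 of smallest p. Others are named where stated, as neighbours, or as the remaining tested germline genes. The comparison and the lists were chosen with earlier results of these data known. One called gene and some list members that the rule would name are not reported here, which leaves 40 of 41 called genes named. Alternatives were DESeq2's size factors, no filter, the Wald test of DESeq2 1.42.0, a fit of the 6 libraries alone, a replicate block, edgeR's newer quasi-likelihood form, an added 2-fold threshold, and leaving out each library. A fit without replicate 3 of E7 clone 2 and of E6 clone 2 was added after the data were seen.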

Additional observations from a re-analysis of the deposited data

Results flagged for a closer look

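Among the genes called in E7 clone 2 against A20 parental, 16 also differed between E7 clone 2 and E7 clone 1 in edgeR's quasi-likelihood test of that difference. The values are log2 differences, E7 clone 2 minus E7 clone 1, with 3 libraries per clone, and the same E7 clone 2 libraries enter both comparisons. Of the genes lower than in the parental line, 12 were also lower than in E7 clone 1. The difference was -6.41 for *Gm10863*, -5.52 for *Pla2g5*, -4.90 for *Proser2*, -4.00 for *Spata6* and -3.85 for *Dusp9*. It was -2.77 for *A230056P14Rik*, -2.19 for *Mcoln3* and -2.10 for *A630095E13Rik*. *Rhox5* and *Trim30a* differed by -1.73 and -1.68, and *Fgfr1op* and *Tsnax* by -1.10 and -0.88. Of the genes higher than in the parental line, 4 were also higher than in E7 clone 1, with differences of 3.58 for *Cryz*, 3.36 for *Rgcc*, 2.36 for *Espnl* and 1.48 for *Serpinf1*. Adjusted p ranged from 7.9e-07 for *Cryz* to 0.0424 for *A630095E13Rik*.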

How the results depend on the processing

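The 29 lower and 12 higher genes rested on the spread shared by 5 lines. DESeq2's Wald test called 146 and 108, and the fit of the 6 libraries alone 15 and 3. With no filter 21 genes were higher. Leaving out 1 library gave 13 to 20 lower and 2 to 11 higher genes, the fewest without parental replicate 2 or 3 (13 and 2 each), with 13 and 5 without E7 clone 2 replicate 1 and 13 and 4 without replicate 2. Without replicate 3 of both E7 clone 2 and E6 clone 2, chosen after seeing the data, 121 and 129 were called. Against E7 clone 1, with 31 lower and 51 higher genes, DESeq2 called 92 and 195, no filter gave 99 higher, the fit without both deviating libraries 78 higher, and leaving out 1 library gave 14 to 22 and 26 to 40. *Foxp1* missed the threshold in the 6 libraries alone (log2 fold change -1.67, adjusted p = 0.0538) and in no other alternative. *Bub1*, not called, turned from a log2 fold change of -0.46 to 0.012 without E7 clone 2 replicate 3 and to 0.022 without both deviating libraries, and ran from -0.78 to 0.012 with 1 library left out. Over the 40 named genes and their alternatives, 347 values stayed called and 172 did not, with none reversed. The cause was not tested.

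With the replicate block 28 genes were lower and 11 higher than in the parental line. Same-numbered parental and E7 clone 2 libraries deviated together by r = 0.121, 0.0603 and 0.122, so not every pair passed 0.1 and the numbers were not taken as pairs. Each library correlated best with its own number, a hint from the data and not from the design. At these depths genes with few reads were the least certain.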

Other observations

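These values were chosen after the data were seen. In replicate 3 of E7 clone 2, 9 genes held at least 10 CPM and at least 10 times the next of the 6 libraries, against 0 and 1 in replicates 1 and 2 and 1 to 4 in the parental libraries. *Fosl2*, a subunit of AP-1, held 36.0 CPM there, 0.819 and 0.906 CPM in the other E7 clone 2 libraries and 12.6 CPM in replicate 3 of E6 clone 2. *Npr2*, a natriuretic peptide receptor, held 25.9 CPM there, 20.8 CPM in that E6 clone 2 library, and at most 1.61 CPM in the other 13.

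In parental replicate 1, the small nuclear RNA *Rn7sk* held 115 CPM, against 1.60 and 2.24 CPM in the other parental libraries, and *Rpph1*, the RNA of ribonuclease P, 10.6 against 0.160 and 0.175 CPM. Replicate 1 of E6 clone 2 was also high in both, at 374 and 22.5 CPM. *mt-Atp6*, a mitochondrial subunit of ATP synthase, held 20.1 CPM in parental replicate 1 and 4381 and 6690 CPM in the other parental libraries. It was also low in replicate 1 of E6 clone 1 and replicate 3 of E6 clone 2, at 4.88 and 11.0 CPM.

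*Jaml*, a junctional adhesion molecule, held 5.84, 4.80 and 6.03 CPM in E7 clone 2 and 1.15, 0.614 and 0.670 CPM in the parental libraries without passing the test (log2 fold change 2.77, adjusted p = 0.0776, edgeR).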
